A study of Bos grunniens with 9 samples.

Results

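The integrated stress response genes described here are 10 genes of the translational stress pathway, chosen by symbol: the transcription factors ATF4, ATF5, DDIT3 and XBP1, the phosphatase subunits PPP1R15A and PPP1R15B, the pseudokinase TRIB3, and ASNS, CHAC1 and SESN2. All 10 were found among 21652 genes counted in yak ovary, each under 1 identifier. Ribosome profiling sequences short mRNA fragments protected by ribosomes, so a gene's count depends on its mRNA amount and on how many ribosomes sit on that mRNA. Whole ovarian tissue came from yaks (Bos grunniens) aged 6 years, taken within 60 min of euthanasia and frozen, with no further treatment named in the labels. The groups were anestrus (April, 3 libraries), estrus (August, 3 libraries) and pregnancy (December, 3 libraries). Month and reproductive stage go together in this design and cannot be told apart. The labels do not tie a library to an animal, so p-values measure only the spread between these 9 samples.

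In the integrated stress response, kinases that sense amino acid shortage, misfolded protein in the endoplasmic reticulum (ER), double-stranded RNA or heme shortage phosphorylate the initiation factor eIF2 and so lower protein synthesis in general. A few mRNAs with upstream open reading frames, ATF4 above all, are then translated more. ATF4 switches on genes for amino acid supply, and PPP1R15A feeds back by bringing a phosphatase to eIF2. XBP1 belongs to a parallel arm of the ER stress response and is required by antibody-secreting cells. In the ovary these pathways are known from follicle atresia and from the secretory load of steroid- and matrix-producing cells.

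Total counts per library, in units of 1000000, ran from 12.0 to 28.9 in anestrus, 6.08 to 11.1 in estrus and 1.47 to 9.08 in pregnancy, so depth was not balanced over stages. Pregnancy replicate 3 was the shallowest and anestrus replicate 2 the deepest, and earlier results of these data set both apart from the other libraries. Both are called outlying below on these grounds alone. Results that rest on them are given with and without them. Where they hold a gene's lowest and highest values, as for DDIT3 and CHAC1, leaving them out shrinks its pregnancy over anestrus difference by construction. A floor of 3 counts equals 2.04 CPM (counts scaled to a library of 1000000) in pregnancy replicate 3 and 0.104 CPM in anestrus replicate 2. These floors use the raw library total, while gene levels below are TMM-normalised. Of the ovarian marker lists, all 12 granulosa and all 9 theca markers passed the filter on low counts in these libraries, while 3 of 10 oocyte markers did. In whole tissue, fewer cells of a type and less RNA per cell cannot be told apart, and this holds for each value below.

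The files do not state over which part of a gene footprints were counted. The deposited FPKM values (counts per kilobase of gene, scaled to library total) divide each count by a gene length, which was recovered from the count, the FPKM and the library total. It was whole within 0.25 bases for 3528 of 4147 genes with enough signal to resolve it. Of these, 88.5% left the same remainder of 2 on division by 3, while 5.64% left 0 and 5.84% left 1, a pattern of coding lengths with a constant added. This describes the length used to scale FPKM and does not show where footprints were counted. For ATF4 the recovered length was 1076 bases, for XBP1 1160 bases and for PPP1R15A 2042 bases. DDIT3, whose length ranged from 536 to 570 bases over the libraries, and ATF5, from 832 to 877 bases, varied beyond rounding. The tables hold 1 value per gene, so footprints on upstream frames and the spliced and unspliced forms of XBP1 were not separated.

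Per length, the members covered a wide range. XBP1 had the highest mean, 117 FPKM over 9 libraries (range 84.2 to 169), and lay between the 89.1 and 94.9 percentile of detected genes. ATF4 followed with a mean of 49.7 FPKM (38.9 to 70.3), PPP1R15A with 36.0 FPKM (7.12 to 127) and DDIT3 with 19.2 FPKM (8.14 to 31.8). ASNS, asparagine synthetase, had 13.3 FPKM (8.12 to 23.2) and PPP1R15B 9.05 FPKM (4.37 to 13.1). Low levels were found for SESN2 (mean 4.53 FPKM), CHAC1 (3.98 FPKM), ATF5 (2.14 FPKM) and TRIB3 (0.519 FPKM, 2.34 to 17.8 percentile). XBP1 exceeded ATF4 in 9 of 9 libraries, PPP1R15B exceeded SESN2 in 9 and ATF5 exceeded TRIB3 in 9. ATF4 exceeded PPP1R15A in 8 libraries, while SESN2 exceeded CHAC1 in 5 of 9, so the order of that last pair was not settled. XBP1 alone held 35.3 to 64.1% of the FPKM summed over the 10 genes.

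**Figure D1:**
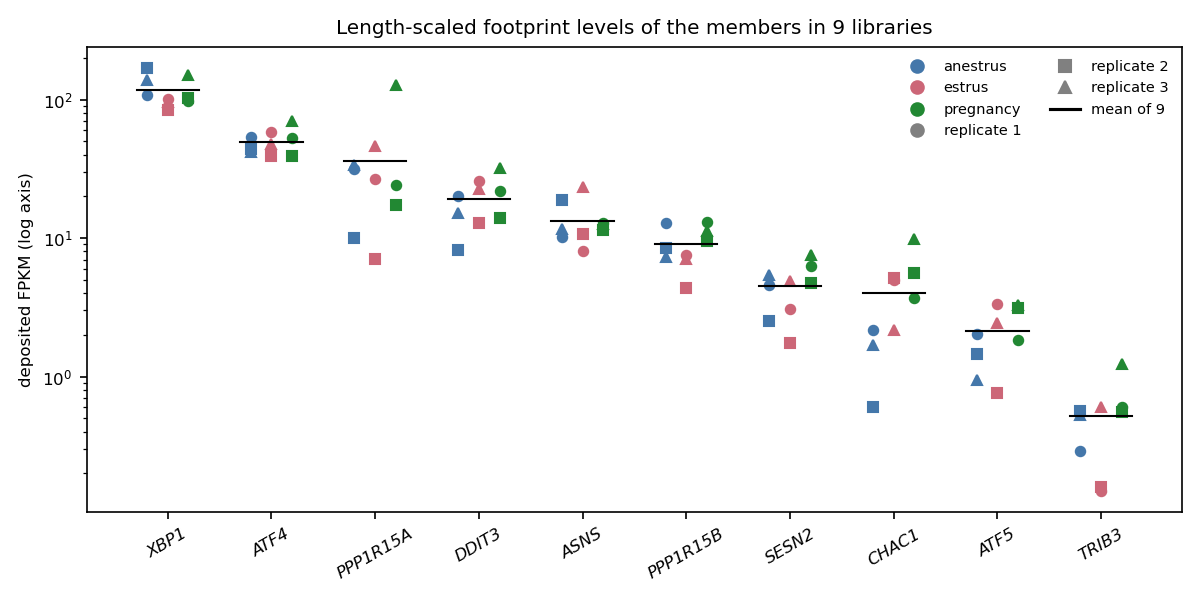
Deposited FPKM of the 10 genes (log axis), ordered by the mean over 9 libraries (black line), with colour for stage and symbol shape for replicate number. XBP1 lies above ATF4 in every library, and PPP1R15A covers the range 7.12 to 127 FPKM.

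No member passed the test of a difference between stages. Of the 10, 9 passed the filter on low counts and TRIB3 did not. With edgeR, 0 of 9 were called in each comparison at an adjusted p under 0.05, where the background is 0% of 13936 genes. DESeq2 and limma-voom also called 0 of 9 in each comparison (limma-voom background 0% in each). The DESeq2 background was 0.108% for estrus versus anestrus, 0.209% for pregnancy versus estrus, 0.202% for pregnancy versus anestrus and 0.403% for the test among all 3 stages. The smallest edgeR adjusted p of a member was 0.656, and over all alternatives it was 0.267. At an unadjusted p under 0.05 edgeR listed 3 of 9 members in estrus versus anestrus, beside 7.04% of all genes. CHAC1 was the 1 with the higher estrus level (background 2.91%), and PPP1R15B and XBP1 had the lower one (background 4.13%). In pregnancy versus estrus it listed 1 member, PPP1R15B with the higher pregnancy level, and 0 with a lower one (backgrounds 7.43% in all, 4.23% higher and 3.19% lower). In pregnancy versus anestrus it listed 1 member, CHAC1 with the higher pregnancy level, and 0 with a lower one (backgrounds 6.82% in all, 3.2% higher and 3.62% lower). A test among all 3 stages gave adjusted p = 0.693 for CHAC1, PPP1R15B and XBP1 alike, and at an unadjusted p under 0.05 it listed 1 member, CHAC1, beside 7.16% of all genes (edgeR). The authors' deposited table likewise lists 0 members at its FDR under 0.05, where it lists 0.143%, 0.106% and 0.166% of all genes in the same order of comparisons. At its unadjusted p under 0.05 it lists 2, 1 and 1 members.

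As a group the 9 tested members had a median log2 fold change of 0.018 for estrus over anestrus. It was 0.23 for pregnancy over estrus and 0.43 for pregnancy over anestrus. Over all genes tested the medians were -0.0063, 0.0056 and 0.0014. Fold changes were above 0 for 5, 7 and 7 of the 9, where 49.2%, 50.6% and 50.1% of all genes had one above 0. Without anestrus replicate 2 and pregnancy replicate 3 the medians of the members were 0.047, 0.056 and 0.12. Without estrus replicate 3 alone the first was -0.59. With library size (log2) as a covariate, the median for pregnancy over anestrus was -0.12, and mean depth differed between these stages (18.8 against 5.17 counts in units of 1000000). Markers listed for the theca, a steroid-producing layer around the follicle, also shifted in their estimates. Log2 fold changes lay above 0 for 9 of 9 in each comparison, with a median of 1.39 in pregnancy over anestrus. This list includes the steroid synthesis genes CYP11A1 and HSD3B1 and does not single out 1 cell type. The summed level of the 9 markers was 495 to 1989 CPM in anestrus, 759 to 2934 CPM in estrus and 1332 to 6059 CPM in pregnancy, with no marker at 0 throughout a stage. For pregnancy over anestrus edgeR called 0 of the 9 and listed 6 at an unadjusted p under 0.05 (background 6.82%), and DESeq2 called 1 (background 0.202%). Granulosa markers, of the cells inside the follicle, lay above 0 for 11 of 12 in estrus over anestrus and 10 of 12 in pregnancy over anestrus, with 0 called by any tool. Their summed level was 1447 to 6438 CPM in anestrus, 2703 to 10334 CPM in estrus and 2109 to 8300 CPM in pregnancy, with none at 0 throughout a stage. Smooth muscle (7 of 7), endothelial (7 of 8) and stroma markers (6 of 7) lay below 0 in pregnancy over anestrus, with 0 called by any tool. Leukocyte markers lay below 0 for 5 of 10. As mean deviations from each gene's mean log2 CPM, the members scored highest in pregnancy replicate 3 (0.65) and lowest in estrus replicate 2 (-0.56). In these libraries theca markers scored -0.051 and 0.41, and granulosa markers -0.69 and 0.81. The part of depth and of these cells in the members' values was not tested beyond this. The comparisons share libraries, so they are not independent of each other.

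**Figure D2:**
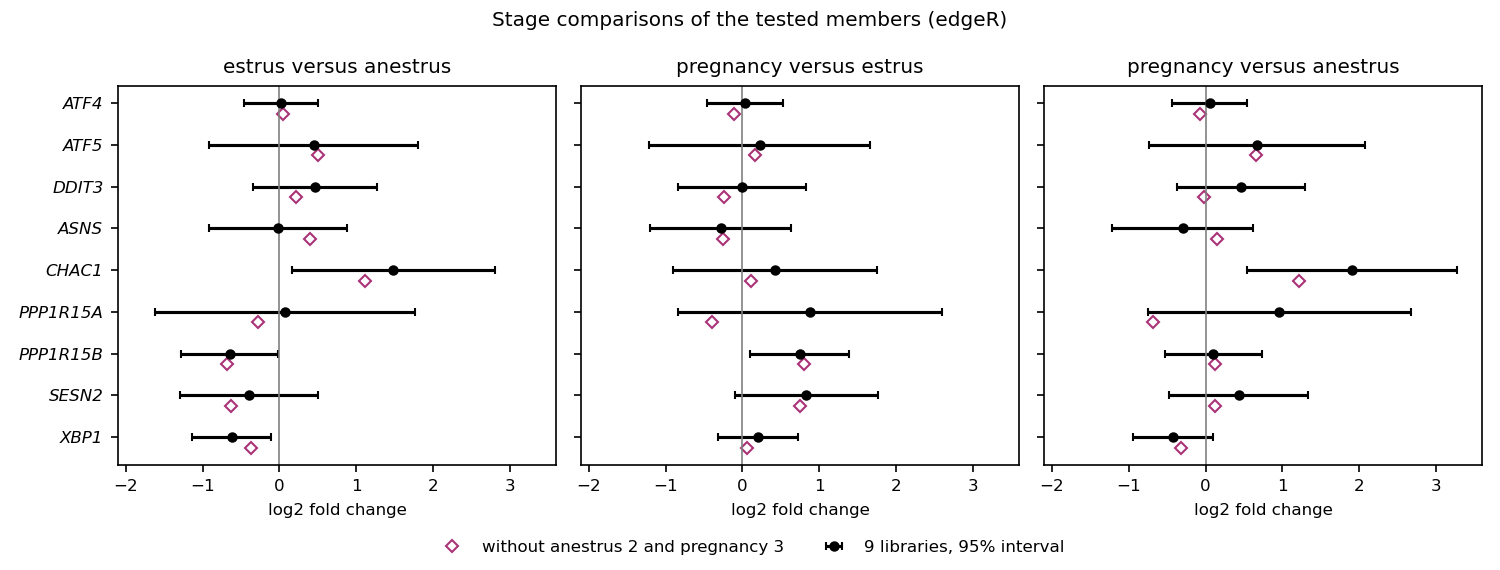
Log2 fold changes of the 9 tested members in 3 stage comparisons, with 95% intervals from the edgeR fit of 9 libraries (black) and the estimate without anestrus replicate 2 and pregnancy replicate 3 (open diamonds). The widest intervals belong to PPP1R15A, whose estimates lie on the other side of 0 without those libraries.

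ATF4 (ENSBTAG00000017462), the central transcription factor of the response, was close to level over the stages. Anestrus replicates 1 to 3 held 58.6, 54.4 and 43.4 CPM (TMM-normalised), estrus replicates 60.4, 45.0 and 53.1 CPM, and pregnancy replicates 55.0, 42.3 and 66.2 CPM. The stages overlapped fully, and the highest library exceeded the lowest 1.57-fold, the narrowest range of the 10 genes. Log2 fold changes (± SE) were 0.018 ± 0.22 for estrus over anestrus, 0.036 ± 0.22 for pregnancy over estrus, and 0.054 ± 0.22 for pregnancy over anestrus (edgeR adjusted p = 0.994, 0.980 and 0.953). The 95% intervals ran from -0.47 to 0.50, -0.46 to 0.53 and -0.44 to 0.54, so larger differences between stage means lie outside them.

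ATF5 (ENSBTAG00000003457), a related factor linked to mitochondrial stress, rested on 4 to 36 counts a library. Its levels were 1.72, 1.42 and 0.806 CPM in anestrus, 2.66, 0.678 and 2.19 CPM in estrus and 1.49, 2.64 and 2.38 CPM in pregnancy. Each pair of stages overlapped, and in pregnancy versus anestrus the log2 fold change was 0.67 ± 0.64 (edgeR adjusted p = 0.803). Its 95% interval ran from -0.74 to 2.08.

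DDIT3 (ENSBTAG00000031544), the factor CHOP that favours cell death under lasting stress, had 11.1, 5.22 and 8.06 CPM in anestrus. Estrus libraries held 13.3, 7.84 and 12.5 CPM and pregnancy libraries 11.2, 7.52 and 15.5 CPM. Anestrus replicate 2 was the lowest and pregnancy replicate 3 the highest, with overlap between all stages. Log2 fold changes against anestrus were 0.46 ± 0.37 for estrus (edgeR adjusted p = 0.791) and 0.46 ± 0.38 for pregnancy (adjusted p = 0.771). Without both outlying libraries they were 0.22 and -0.017.

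XBP1 (ENSBTAG00000005970), which drives genes of protein folding and secretion, was the 1 member whose estrus libraries lay below all anestrus libraries. Anestrus replicates held 129, 224 and 156 CPM, estrus replicates 112, 105 and 115 CPM, and pregnancy replicates 108, 121 and 153 CPM. Pregnancy overlapped both other stages. In estrus versus anestrus the mean was 110 ± 5.14 against 170 ± 49.0 CPM (SD, n = 3 each), and 11.6% of all genes had no overlap in this comparison, 6.42% with estrus lower. The log2 fold change was -0.62 ± 0.23 with an interval from -1.14 to -0.10, and it did not pass (edgeR unadjusted p = 0.0231, adjusted p = 0.704). Without anestrus replicate 2 and pregnancy replicate 3 it was -0.37 (unadjusted p = 0.0815).

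Antibody-secreting cells depend on XBP1, and levels of B and plasma cell markers also stood lower in estrus. Of 14 markers, 12 were tested and edgeR called 0 in any comparison, while DESeq2 called 1 in estrus versus anestrus (background 0.108%). Of the 12 tested markers 10 had log2 fold changes below 0 in estrus versus anestrus (median -0.85; over all genes 49.2% lay above 0). Their summed level was 156 to 240 CPM in anestrus, 52.4 to 152 CPM in estrus and 128 to 267 CPM in pregnancy. PAX5 did not pass the filter and was at 0 in every library except anestrus replicate 2 (0.0395 CPM), so it shows no stage difference. The plasma cell markers JCHAIN (mean 169 FPKM) and MZB1 (40.6 FPKM) were abundant. Over the 9 libraries XBP1 and the marker score had Pearson r = 0.468 (exact permutation p = 0.203, adjusted p = 0.593) and Spearman rho = 0.600 (exact p = 0.0968, adjusted p = 0.678). With stage means removed r was -0.217 (exact p = 0.580), and without anestrus replicates 2 and 3, the libraries farthest from the XBP1 median, it was 0.513. The part of these cells in the XBP1 difference was not tested.

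**Figure D3:**
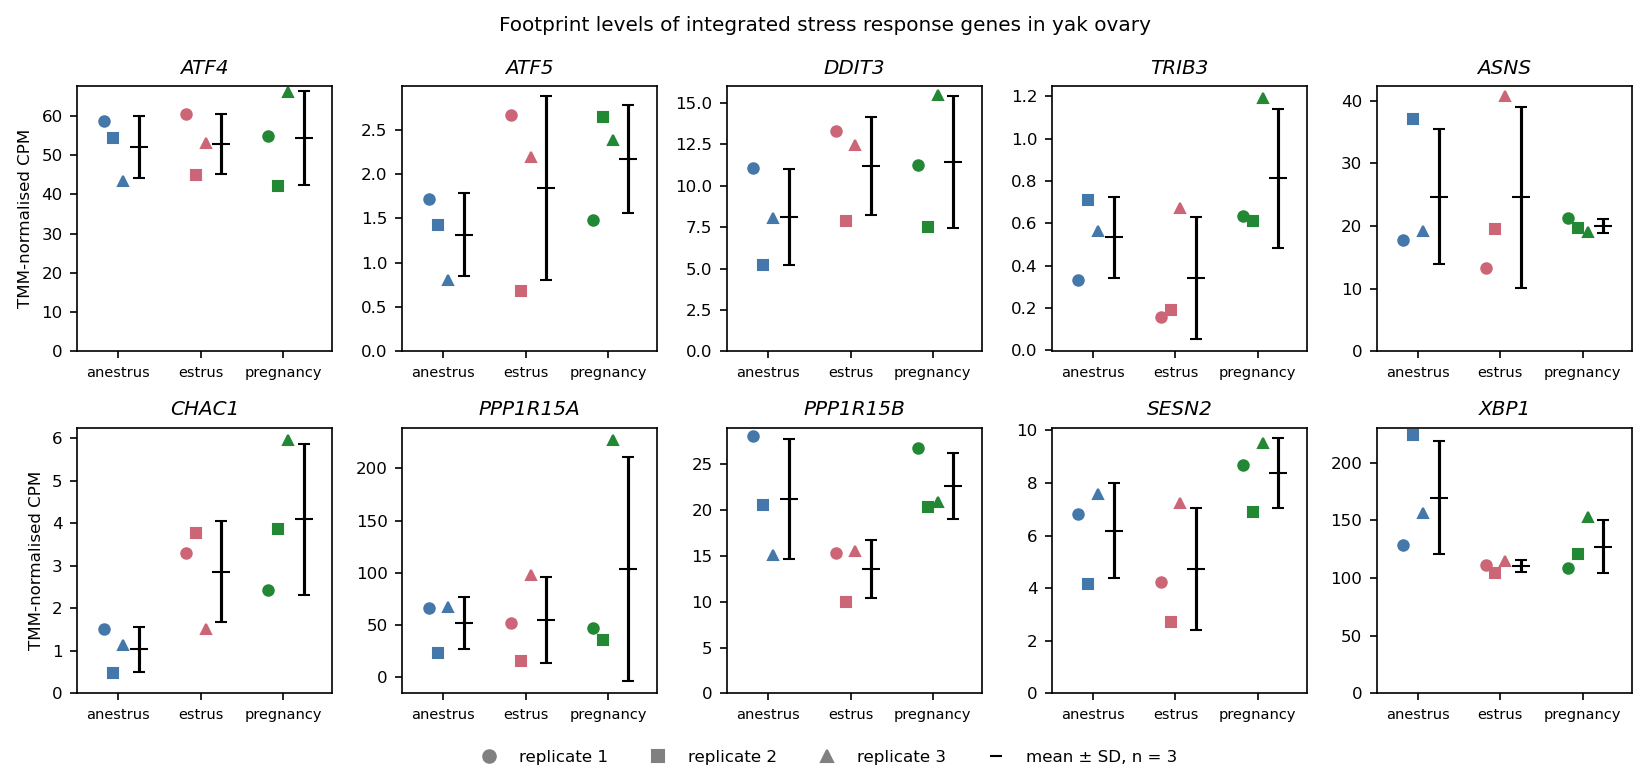
TMM-normalised CPM of each gene in 9 libraries, with symbol shape for replicate number and the stage mean ± SD (n = 3) in black. XBP1 in estrus (105 to 115 CPM) lies below anestrus (129 to 224 CPM), and CHAC1 in anestrus (0.474 to 1.52 CPM) below pregnancy (2.44 to 5.96 CPM). ATF4, DDIT3, CHAC1, PPP1R15A and SESN2 have their highest level in pregnancy replicate 3, the shallowest library. TRIB3 in that library rests on 2 counts.

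Both regulatory subunits that direct protein phosphatase 1 to eIF2 were measured, PPP1R15A (GADD34), the inducible one, and PPP1R15B (CReP), the constitutive one. PPP1R15A (ENSBTAG00000001294) was the most variable of the abundant members. Its levels were 66.0, 23.2 and 66.8 CPM in anestrus, 52.0, 15.6 and 97.6 CPM in estrus and 47.2, 35.6 and 227 CPM in pregnancy. Pregnancy replicate 3 stood 2.33-fold above the next library and 14.6-fold above the lowest, estrus replicate 2, and both lay far from the other libraries of their stage. The log2 fold change in pregnancy versus anestrus was 0.96 ± 0.77 (edgeR adjusted p = 0.769), and over estrus it was 0.88 ± 0.78 (adjusted p = 0.797). Without pregnancy replicate 3 these were -0.33 and -0.40. With all 9 libraries the first was -0.21 with limma-voom, and with library size (log2) as a covariate they were -1.63 and -0.28.

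PPP1R15B (ENSBTAG00000013074) was lowest in estrus. It had 28.1, 20.5 and 15.1 CPM in anestrus, 15.3, 9.97 and 15.5 CPM in estrus and 26.7, 20.3 and 20.9 CPM in pregnancy. All pregnancy libraries lay above all estrus libraries, and 13.6% of all genes had no overlap in this comparison, 7.05% with pregnancy higher and 6.59% with it lower. Anestrus replicate 3 overlapped estrus. The log2 fold change was 0.75 ± 0.29 in pregnancy versus estrus (edgeR unadjusted p = 0.0268, adjusted p = 0.656) and -0.65 ± 0.28 in estrus versus anestrus (unadjusted p = 0.0451, adjusted p = 0.704). Without anestrus replicate 2 and pregnancy replicate 3 they were 0.80 and -0.68, and in no alternative did either change sign. Leaving out each library in turn, the first ran from 0.56 to 0.85 and the second from -0.84 to -0.40.

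Per length PPP1R15A exceeded PPP1R15B in all 9 libraries. The ratio of their FPKM was 2.45, 1.18 and 4.62 in anestrus, 3.52, 1.63 and 6.55 in estrus and 1.84, 1.82 and 11.3 in pregnancy. It was lowest in anestrus replicate 2 and highest in pregnancy replicate 3, and replicate 3 had the highest ratio within each stage. From the lowest to the highest library PPP1R15B varied 2.82-fold in CPM and PPP1R15A 14.6-fold.

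**Figure D4:**
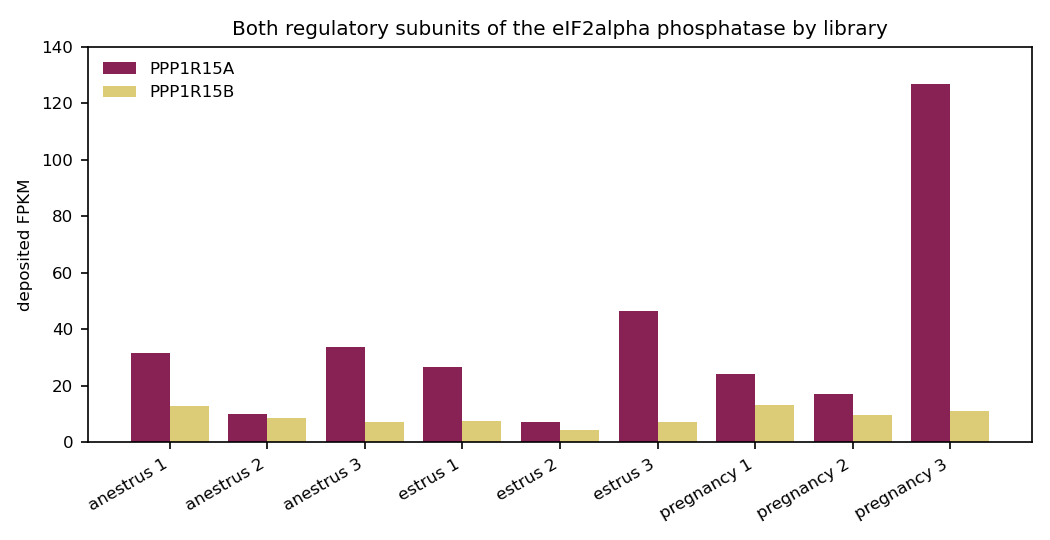
Deposited FPKM of PPP1R15A and PPP1R15B in each library (bars start at 0). PPP1R15A ranges from 7.12 FPKM in estrus replicate 2 to 127 FPKM in pregnancy replicate 3, while PPP1R15B stays between 4.37 and 13.1 FPKM.

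PPP1R15A is also induced with immediate early genes, which respond to handling and to death of the animal. Of 22 such genes 21 had log2 fold changes below 0 in pregnancy versus anestrus (median -0.77), where 50.1% of all genes lay above 0, and the edgeR test called 0 of them. Their summed level was 1616 to 5153 CPM in anestrus, 1329 to 4315 CPM in estrus and 1323 to 3436 CPM in pregnancy, with no member of the list at 0 throughout a stage. Immediate early genes scored highest in anestrus replicate 3 (0.87) and estrus replicate 3 (0.86). Pregnancy replicate 3 scored 0.18, above pregnancy replicates 1 (-0.66) and 2 (-0.64). PPP1R15A and this score had r = 0.209 (exact permutation p = 0.593, adjusted p = 0.593) and rho = 0.350 (exact p = 0.359, adjusted p = 0.837). Without estrus replicate 2 and pregnancy replicate 3 r was 0.261, and with stage means removed it was 0.399 (exact permutation p = 0.280). Their part in the PPP1R15A levels was not tested beyond this.

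TRIB3 (ENSBTAG00000017007), which is induced by ATF4 and DDIT3 and restrains ATF4 in turn, had 1 to 18 counts a library and did not pass the filter. Its counts were 5, 18 and 7 in anestrus, 1, 2 and 4 in estrus and 6, 3 and 2 in pregnancy. In CPM these were 0.331, 0.711 and 0.564, then 0.157, 0.194 and 0.674, then 0.637, 0.609 and 1.19, and 4 of the 6 estrus and pregnancy libraries held 3 counts or fewer. Exact two-sided permutation tests gave p = 0.30 in estrus versus anestrus, p = 0.30 in pregnancy versus estrus and p = 0.40 in pregnancy versus anestrus, where 3 against 3 libraries allow no p below 0.10.

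CHAC1 (ENSBTAG00000010371), an ATF4 target that degrades glutathione, had the largest stage difference of the members. It stood at 1.52, 0.474 and 1.13 CPM in anestrus, 3.29, 3.78 and 1.52 CPM in estrus and 2.44, 3.86 and 5.96 CPM in pregnancy. All pregnancy libraries lay above all anestrus libraries, while estrus replicate 3 overlapped anestrus. In pregnancy versus anestrus 12.8% of all genes had no overlap, 5.88% with pregnancy higher. These levels rest on 9 to 39 counts a library. The log2 fold change was 1.91 ± 0.62 in pregnancy versus anestrus, with an interval from 0.54 to 3.27 (edgeR unadjusted p = 0.0108, adjusted p = 0.718). In estrus versus anestrus it was 1.48 ± 0.60 (unadjusted p = 0.0312, adjusted p = 0.704). Without anestrus replicate 2, where CHAC1 was lowest, and pregnancy replicate 3, where it was highest, they were 1.22 (unadjusted p = 0.0853) and 1.11 (unadjusted p = 0.0879). In the authors' deposited table the log2 fold change of mean FPKM in pregnancy versus anestrus is 2.10, with FDR = 0.415.

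ASNS (ENSBTAG00000003222), the amino acid response gene that makes asparagine, had 17.7, 37.1 and 19.3 CPM in anestrus, 13.3, 19.6 and 40.8 CPM in estrus and 21.3, 19.7 and 19.1 CPM in pregnancy. Anestrus replicate 2 and estrus replicate 3 were high, and the 3 pregnancy libraries lay close together (SD 1.16 CPM). Log2 fold changes were -0.015 ± 0.40 in estrus versus anestrus and -0.30 ± 0.41 in pregnancy versus anestrus (edgeR adjusted p = 0.998 and 0.872). They were 0.40 and 0.15 without anestrus replicate 2 and pregnancy replicate 3.

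SESN2 (ENSBTAG00000002363), a leucine sensor that restrains mTORC1, had 6.82, 4.15 and 7.58 CPM in anestrus, 4.23, 2.71 and 7.25 CPM in estrus and 8.70, 6.91 and 9.54 CPM in pregnancy. Estrus replicate 3 overlapped pregnancy by a small margin. The log2 fold change in pregnancy versus estrus was 0.83 ± 0.42 (edgeR unadjusted p = 0.0759, adjusted p = 0.689), and without both outlying libraries it was 0.75.

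The members did not vary as 1 unit. Of the tested genes, ATF4, DDIT3, CHAC1, PPP1R15A and SESN2 were highest in pregnancy replicate 3, while ATF5, ASNS, PPP1R15B and XBP1 peaked in other libraries. Estrus replicate 2 held the lowest level of ATF5, PPP1R15A, PPP1R15B, SESN2 and XBP1. Pregnancy replicate 3 was the shallowest library. The share of all genes with their highest or lowest level in these libraries was not computed, so this is not read as a trait of the members. Averaged over the tested members, the deviation of a library from each gene's mean log2 CPM was 0.65 in pregnancy replicate 3, -0.56 in estrus replicate 2 and -0.31 to 0.21 in the other 7 libraries. ASNS and XBP1 departed from this, with high levels in anestrus replicate 2, where the mean was -0.31.

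Among 9095 non-member genes with a mean of 10 CPM or more, those most like the mean of the members over the 9 libraries were KMT2C (r = 0.983), FBXL17 (0.981), COL27A1 (0.978), EVC (0.974) and COX1 (0.970). The mitochondrially encoded COX1 ranged from 139 CPM in estrus replicate 2 to 1231 CPM in pregnancy replicate 3 (levels with a prior count). Closest to ATF4 alone were PHF20L1 (r = 0.932), RWDD1 (0.919) and ERO1B (0.915), and closest to DDIT3 were ZRANB1 (0.987), PNISR (0.976) and a gene with the symbol F52C9.6 (0.972). These are the highest of 9095 correlations over libraries of unequal depth, and they are given as a description.

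The upstream machinery was measured well, and 0 of its 18 genes were called in any comparison by edgeR, DESeq2 or limma-voom. The list holds the eIF2 kinases and proteins that act on them, the subunits of eIF2 and of its exchange factor eIF2B, and the phosphatase catalytic subunits. It shares DNAJC3 with the ER unfolded protein response list. Median log2 fold changes were -0.076 for estrus over anestrus, -0.091 for pregnancy over estrus and -0.23 for pregnancy over anestrus. Without both outlying libraries they were 0.045, -0.011 and -0.0036. At an unadjusted p under 0.05 edgeR listed 0, 3 and 2 of the 18 in these comparisons, against 7.04%, 7.43% and 6.82% of all genes. The most abundant by mean FPKM were PPP1CB (169), EIF2S3 (105), DNAJC3 (86.9), an inhibitor of eIF2 kinases, and EIF2S1 (78.5), the subunit that is phosphorylated. EIF2S1 had log2 fold changes of 0.093 ± 0.27, -0.56 ± 0.28 and -0.47 ± 0.27.

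Partner transcription factors of the same family were also uncalled, with 0 of 7 by each tool in each comparison. The backgrounds were 0% with edgeR and limma-voom and 0.108%, 0.209% and 0.202% with DESeq2. CEBPG, also on the list, had no matching gene. CEBPD had the highest mean (175 FPKM), then NFE2L2 (39.5 FPKM), the oxidative stress regulator, ATF3 (35.8 FPKM), a stress-induced target of ATF4, and CEBPB (35.0 FPKM), a dimer partner. In pregnancy versus anestrus ATF3 had -1.14 ± 0.80 and CEBPB -1.52 ± 0.54 (edgeR adjusted p = 0.749 and 0.718). Without both outlying libraries these were -2.09 and -0.47. In each comparison 5 of 7 genes of the list lay below 0, where 49.2%, 50.6% and 50.1% of all genes lay above 0. At an unadjusted p under 0.05 edgeR listed 1, 0 and 1 of the 7, against 7.04%, 7.43% and 6.82% of all genes.

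The list of other ATF4 target genes lay near 0 in its medians. Of 30 matched genes 27 passed the filter, FGF21 was at 0 in every library, and 0 were called by edgeR, DESeq2 or limma-voom. Median log2 fold changes were -0.15 for estrus over anestrus, -0.0088 for pregnancy over estrus and -0.094 for pregnancy over anestrus. Without both outlying libraries they were 0.044, 0.14 and 0.034, on the other side of 0. At an unadjusted p under 0.05 edgeR listed 2, 0 and 4 of the 27, all with the lower level outside anestrus, against 7.04%, 7.43% and 6.82% of all genes (4.13%, 3.19% and 3.62% lower). The most abundant were amino acid transporters, SLC38A2 (236 FPKM), SLC3A2 (147 FPKM) and SLC1A5 (44.4 FPKM), and the growth arrest gene GADD45A (63.5 FPKM). In pregnancy versus anestrus SLC1A5, a glutamine transporter, had -1.45 ± 0.54 and GADD45A -0.95 ± 0.40 (edgeR adjusted p = 0.718 for each), and without both outlying libraries -0.20 and -0.33. SLC38A2 had -0.071 ± 0.34 and SLC3A2 -0.20 ± 0.25.

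Across libraries ATF4 and the score of these targets had r = -0.358 (exact permutation p = 0.366, adjusted p = 0.593) and rho = -0.233 (exact p = 0.552, adjusted p = 0.880). In pregnancy replicate 3, where ATF4 was highest, the score was lowest at -0.54, and the highest score, 0.48, was in anestrus replicate 2. This placement was not particular to ATF4 targets. The same libraries held the lowest and highest scores of the eIF2 machinery (-0.33 and 0.29) and the unfolded protein response (-0.36 and 0.30). So they did for endothelial (-0.42 and 0.44) and stroma markers (-0.33 and 0.35). The other lists did not share both extremes. For ATF4 and its target score r was -0.430 without anestrus replicate 3 and pregnancy replicate 2, farthest from the ATF4 median. ASNS and the same score had r = 0.282 (exact p = 0.449, adjusted p = 0.593) and rho = 0.167 (exact p = 0.678, adjusted p = 0.880), and r was -0.166 without anestrus replicate 2 and estrus replicate 3. DDIT3 and the mean of its downstream genes CHAC1 and TRIB3 had r = 0.537 (exact p = 0.137, adjusted p = 0.593) and rho = 0.367 (exact p = 0.336, adjusted p = 0.837), with r = 0.585 without anestrus replicate 2 and pregnancy replicate 2. TRIB3 did not pass the filter on low counts, so this mean rests in part on very few counts. ATF4 and log2 library size had r = -0.318 (exact p = 0.417, adjusted p = 0.593) and rho = -0.117 (exact p = 0.776, adjusted p = 0.880), with r = -0.545 without anestrus replicate 3 and pregnancy replicate 2. These belong to 7 relations computed in all, none of which passed.

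The ER unfolded protein response list, which holds targets and sensors of the XBP1 and ATF6 arms, was abundant and called for 0 of 25 genes by edgeR, DESeq2 and limma-voom. Medians were -0.11 for estrus over anestrus, -0.078 for pregnancy over estrus and -0.13 for pregnancy over anestrus, and without both outlying libraries 0.061, 0.059 and 0.10. The edgeR test listed 1 of 25 at an unadjusted p under 0.05 in each, against 7.04%, 7.43% and 6.82% of all genes. The chaperones CALR (3608 FPKM), PDIA3 (1622 FPKM), HSP90B1 (1244 FPKM) and HSPA5 (1098 FPKM) led by mean level. HSPA5, the main ER chaperone, had log2 fold changes of 0.092 ± 0.28, -0.40 ± 0.28 and -0.31 ± 0.28. XBP1 and the score of this list had r = 0.194 (exact permutation p = 0.587, adjusted p = 0.593) and rho = -0.067 (exact p = 0.880, adjusted p = 0.880). Without anestrus replicates 2 and 3 r was -0.732, and with stage means removed it was -0.015.

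**Figure D5:**
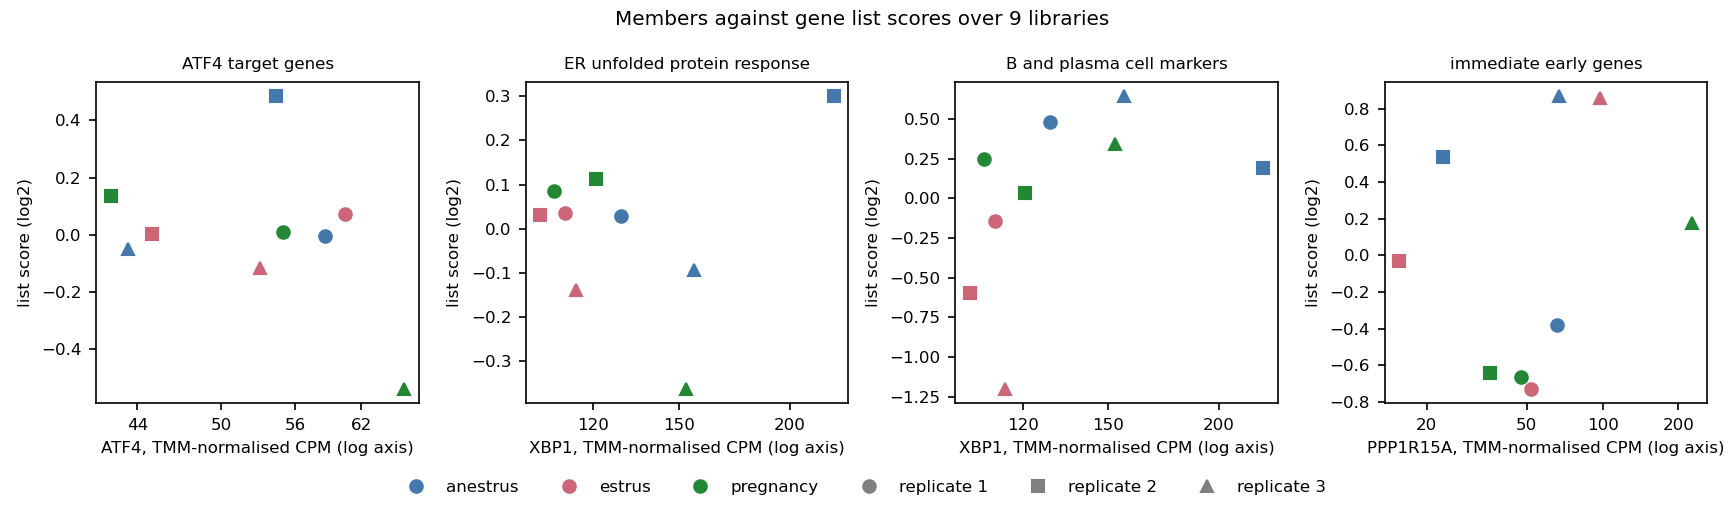
ATF4, XBP1 and PPP1R15A (TMM-normalised CPM, log axis) against the scores of 4 gene lists, 1 point per library, with colour for stage and shape for replicate. Pregnancy replicate 3 has the highest ATF4 and PPP1R15A levels and the lowest scores of ATF4 targets and of the unfolded protein response. Stroma and endothelial markers, which are not drawn, also scored lowest there (-0.33 and -0.42).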

How the data were processed

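Ribosome footprints were measured in 9 ovary libraries, 3 per stage, grouped by the titles. Per the submitters' processing notes, Bowtie2 and RSEM were used. Their versions and the genome build were not given in the sources used here. Per gene, the authors deposited estimated counts as whole numbers, and they differed in 0 values between tables. FPKM deposited by the authors scale these counts by gene length and library total, and served to compare genes. The authors' log2 fold changes, the log2 ratio of stage mean FPKM, and the p-values and FDR in the deposited tables come from a test that is not stated in the files.

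The counts were fitted with edgeR 4.0.16 in R 4.3.3 (genes kept by filterByExpr; TMM factors of 0.876 to 1.14; quasi-likelihood tests with stage as the factor in all 9 libraries), with Benjamini-Hochberg adjustment over the 13936 genes that passed, which held 99.9% of the counts. A gene was called at an adjusted p under 0.05, whatever the tool. The biological coefficient of variation was 34.5%. CPM are TMM-normalised. List scores are means of log2 CPM (prior count 2), each gene centred on its mean, over tested genes. The mean of CHAC1 and TRIB3 was formed in the same way but includes TRIB3, which did not pass the filter. Correlations have exact two-sided permutation p-values, adjusted over the 7. Alternatives were DESeq2 1.42.0, limma-voom (limma 3.58.1) with quality weights, other scalings and filters, a fit of the 6 compared libraries, replicate number as a block, library size as a covariate, summed identifiers and libraries left out. Replicate numbers were not taken to pair libraries, since the labels do not tie a library to an animal. Deviations from stage means correlated from -0.03 to 0.26 within numbers and from -0.27 to 0.14 between different numbers. Whether libraries of the same number share a source was not tested.

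Named genes were the members, the 5 genes most like their mean and the 3 most like ATF4 and DDIT3, and up to 4 genes per list by mean FPKM. PAX5 and FGF21 are named because they were at 0 throughout a stage, and CEBPG because it had no match. The oocyte markers FIGLA, BMP15, DAZL and OOSP2 were also at 0 throughout a stage and are not described above. The members and the 15 lists (199 of 201 entries matched) were chosen with earlier results of these data known. The procedure was also run on simulated data, whose results are not given here, so that run lends no weight to the absence of calls. No sequences are given, and coordinates were not used here.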

Additional observations from a re-analysis of the deposited data

How the results depend on the processing

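No member passed the threshold under any of 21 alternatives, whose smallest adjusted p was 0.267 (DESeq2, CHAC1 in pregnancy versus anestrus). Of 567 values 515 kept their direction and 52 turned it. The 12 of 27 member comparisons that never turned were all 3 of XBP1, ATF5, CHAC1, PPP1R15B, SESN2 and DDIT3 for estrus over anestrus, PPP1R15B and SESN2 for pregnancy over estrus, and ATF5 and CHAC1 in pregnancy versus anestrus. The cause of the turns was not tested. TRIB3, ATF5 and CHAC1 rest on 1 to 39 counts a library, and PPP1R15A had the widest intervals with 161 to 997 counts. DESeq2 called 15 genes for estrus over anestrus, 29 for pregnancy over estrus, 28 for pregnancy over anestrus and 56 among the 3 stages, where edgeR called 0.

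Log2 fold changes that turned are given by setting, as estrus over anestrus first. With limma-voom PPP1R15A was -0.52, then for pregnancy over estrus ATF4 -0.094, ASNS 0.20 and CHAC1 -0.061, and for pregnancy over anestrus ASNS 0.022 and PPP1R15A -0.21. With upper quartile factors ASNS was 0.038, and DDIT3 in pregnancy over estrus 0.00055. Library size alone gave ASNS 0.039, and DDIT3 in pregnancy over estrus 0.10. With only the 6 libraries compared DDIT3 in pregnancy over estrus was 0.00097. With log2 library size in the model ATF4 was -0.12, ASNS 0.22 and PPP1R15A -1.35. For pregnancy over estrus that model gave ATF4 -0.054, CHAC1 -0.018 and PPP1R15A -0.28. For pregnancy over anestrus it gave ATF4 -0.17, DDIT3 -0.21, ASNS 0.047, PPP1R15A -1.63 and SESN2 -0.12, with a median over the tested members of -0.12. Without anestrus replicate 2 and pregnancy replicate 3 together ASNS was 0.40 and PPP1R15A -0.28, then for pregnancy over estrus ATF4 -0.12 and PPP1R15A -0.40, and for pregnancy over anestrus ATF4 -0.069, DDIT3 -0.017, ASNS 0.15 and PPP1R15A -0.68. With the replicate block PPP1R15A in estrus over anestrus was -0.17, 0 genes were called, and the block changed no call; the numbers were not taken to pair the libraries.

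Leaving out each library in turn, log2 fold changes of estrus over anestrus ranged from -0.098 to 0.12 for ATF4, from -0.59 to 0.40 for ASNS and from -0.63 to 0.53 for PPP1R15A, and the members' median from -0.59 to 0.13. Those of pregnancy over estrus ranged from -0.12 to 0.19 for ATF4, -0.20 to 0.60 for ATF5, -0.24 to 0.23 for DDIT3, -0.58 to 0.28 for ASNS and -0.40 to 1.58 for PPP1R15A. Those of pregnancy over anestrus ranged from -0.10 to 0.20 for ATF4, -0.49 to 0.11 for ASNS, -0.33 to 1.38 for PPP1R15A and -0.093 to 0.35 for PPP1R15B. The genes called ranged from 0 to 2 for estrus over anestrus (2 without estrus replicate 3), from 0 to 1 for pregnancy over estrus (1 without pregnancy replicate 3) and from 0 to 1 among the 3 stages (1 without estrus replicate 3). Of the correlations, XBP1 with the unfolded protein response turned to -0.015 with stage means removed, -0.73 without 2 libraries and -0.035 in log2 FPKM. XBP1 with B and plasma cell markers turned to -0.22 with stage means removed, and ASNS with ATF4 targets to -0.17 without 2 libraries and -0.045 in log2 FPKM.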
